A study of Oryctolagus cuniculus with 2 samples.

Results

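The genes described here are the aquaporins, membrane channels that pass water, and KCNJ10, which encodes the inwardly rectifying potassium channel Kir4.1. They were chosen by name, from a list drawn up with earlier results of these data known, and the rule itself used no values: a gene was read from the probe sets that carried its symbol alone in the platform annotation. Of 9 genes sought, 8 had such a probe set, which were 7 aquaporins (AQP1, AQP3, AQP4, AQP7, AQP8, AQP9 and AQP11) and KCNJ10. Each had 1 probe set, and all 8 belonged to the 12724 genes that passed a filter on low signal, out of 15605 genes with a probe set of their own. The only probe set of AQP5, an aquaporin of glands and corneal epithelium, is annotated to AQP2 as well and was not counted as either gene.

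In the retina, Müller glia span the tissue from the photoreceptors to the vitreous and take up the potassium that active neurons release. They pass it on to the vessels and the vitreous through Kir4.1, and AQP4 in the same membranes is thought to carry the water that accompanies it. In rodents both channels are concentrated in the glial endfeet, held there by the dystrophin-associated protein complex, and retinal glia with less Kir4.1 swell under osmotic stress. Swelling of glia and leakage from vessels are both held to contribute to retinal edema, a main complication of retinal vein occlusion (RVO).

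Retinal RNA of Dutch rabbits, whose ages the sources used here do not give, was hybridized to 1 array for each condition. The RVO sample was a retina at day 7 after laser occlusion of its veins, with the irradiated spot cut out before RNA was extracted. The control was an untreated retina at day 7, and in the study the fellow eyes of the treated animals served as controls. The series asks how ischemia alters retinal gene expression, and the values below answer only for these 2 arrays. The median log2 signals of the control and RVO arrays were 6.25 and 6.23. Each difference below is the log2 signal of RVO less that of control, so that 1 means 2-fold. Since each condition had 1 array, there was no replicate error and no test. The only spread that can be had is the disagreement between probe sets of one gene, with a pooled SD of 0.19 over 118 genes, which covers neither the arrays nor the animals. Signals of different probe sets are not comparable as amounts of RNA, so only differences between the arrays are compared between genes. In whole retina, fewer cells of a type and less RNA per cell cannot be told apart. Photoreceptor genes marked both arrays as retina, with log2 signals for SAG, the rod arrestin, of 12.95 (control) and 12.80 (RVO).

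None of the 8 genes differed by over 2-fold in either direction. Over all 12724 genes, the share past 2-fold was 3.5% upwards in RVO and 0.479% downwards. Of the 8 genes, 5 had a difference above 0 and 3 below it, where 42.8% and 56.0% of all genes did. The 8 differences ran from -0.46 for AQP3 to 0.78 for AQP9. Their median was 0.09, against -0.04 over all genes. AQP9, AQP4 and AQP11 had the higher signals in the RVO array, AQP3 and KCNJ10 had the lower ones, and AQP1, AQP7 and AQP8 lay within the SD of 0.19 around 0. At 1.5-fold, AQP9 and AQP4 were higher and no gene was lower, against a share of 7.25% of all genes upwards and 3.03% downwards.

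**Figure D1:**
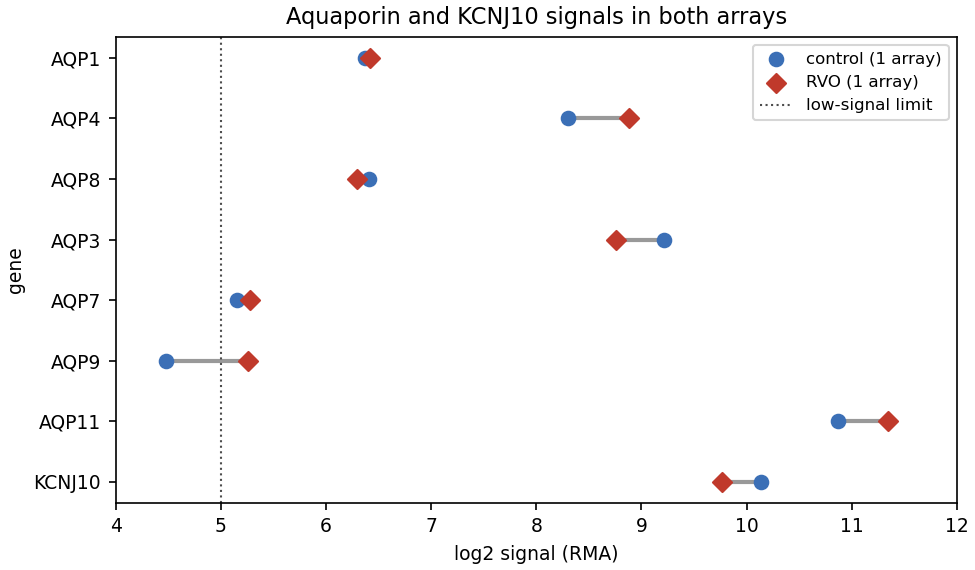
Log2 signal (RMA) of the 8 genes on the x axis, with a circle for the control array, a diamond for the RVO array and a dotted line at the low-signal limit of 5. AQP4, AQP9 and AQP11 lie further right in the RVO array, AQP3 and KCNJ10 further left, and the control signal of AQP9 lies under the limit.

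AQP4, the main water channel of glia in the brain and retina, gave log2 signals of 8.30 in control and 8.88 in RVO (probe set 19881690). The difference of 0.59, or 1.5-fold, was 3.10 times the SD between probe sets and ranked 923 from the highest of 12724 genes. Over all genes, 10.3% differed by at least as much in either direction. The value sits at the edge of 1.5-fold: it was 1.48-fold when quantile normalization was repeated and 1.52-fold when each array was centred on its median.

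For KCNJ10 the log2 signals were 10.13 (control) and 9.76 (RVO), on probe set 19757407. The difference of -0.37, or 0.773-fold, was 1.97 times the SD between probe sets, ranked 1310 from the lowest gene, and was equalled or exceeded in size by 22.5% of genes. Both channels of the glial endfoot thus lay on opposite sides of 0, with AQP4 higher and KCNJ10 lower in the RVO array. The difference of AQP4 exceeded that of KCNJ10 by 0.96 on the log2 scale, so that the ratio of their signals was 1.94-fold higher in the RVO array than in the control array.

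Müller glia, in which both genes are expressed, were followed with 13 other genes. Of these, 9 were above 0, as were 42.8% of all genes, none was beyond 2-fold either way, and the median was 0.29. The difference of AQP4 lay above that of 10 of the 13 genes and the difference of KCNJ10 below that of 11. The glutamate transporter gene SLC1A3, at 0.61, and the Wnt inhibitor gene WIF1, at 0.86, stood on the side of AQP4. The retinaldehyde-binding protein gene RLBP1, at -0.67, and the glutamine synthetase gene GLUL, at -0.56, stood on the side of KCNJ10. The summed linear signal of the 13 genes, which the brightest probe sets dominate as in every such sum here, was 11599 in control and 13794 in RVO.

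Genes of reactive glia, the state that glia enter after injury, were higher. Of 10 measured genes 6 exceeded 2-fold upwards and 0 downwards, against 3.5% and 0.479% of all genes, and the list median was 1.33. The 10 included GFAP, the glial intermediate filament, at 1.20, and CP, ceruloplasmin, at 2.82. VIM, the filament protein vimentin, differed by 0.54, close to AQP4. The difference of AQP4 lay above 4 of the 10. Which cells the signals of these 10 genes come from was not tested. AQP4 is also a channel of fast skeletal muscle fibres, and skeletal muscle genes were higher in the same array. Of 11 such genes, 8 exceeded 2-fold upwards, against 3.5% of all genes, and the list median was 2.37. The summed linear signal of the 11 was 667 in control and 4304 in RVO. MYL1, a myosin light chain of fast muscle, had log2 signals of 6.02 and 10.38. Of the 8, TNNC2 and CASQ1, at control signals of 4.83 and 4.80, passed the filter through the RVO array alone. The part of muscle RNA in the AQP4 signal was not tested.

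AQP11, an aquaporin of intracellular membranes, gave log2 signals of 10.87 in control and 11.34 in RVO (probe set 19735851). The difference of 0.47, or 1.38-fold, ranked 1207 from the highest gene, and 15.5% of genes differed by at least as much. It was 2.49 times the SD between probe sets and close to the difference of AQP4.

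AQP1, AQP4 and AQP8 belong to the aquaporins that pass water, AQP8 passing ammonia too, and of these AQP4 alone exceeded the SD between probe sets. AQP1, the water channel of red blood cells and of the endothelium of many vessels, gave log2 signals of 6.37 in control and 6.42 in RVO (probe set 19738900). The difference was 0.05, or 1.04-fold, and 83.1% of genes differed by at least as much. Of 8 measured endothelial genes 1 was past 2-fold upwards, against 3.5% of all genes, and 1 gene does not set this list apart. It was PECAM1 at 1.03, with a control signal of 5.10, just above the limit of 5. The median of the 8 endothelial genes was 0.15, with 4 genes below AQP1 and 4 above it. The 3 measured erythrocyte genes had a median of -0.24, which was the value of ALAS2. At an RVO signal of 4.98, ALAS2 passed the filter through the control array alone. AQP8, an aquaporin best known from the digestive tract, had 6.40 and 6.30 (probe set 19855007), a difference of -0.11 that was exceeded or equalled by 67.7% of genes.

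The aquaglyceroporins AQP3, AQP7 and AQP9 pass glycerol as well as water, and their differences ran in different directions. AQP3, the glycerol and water channel of skin and of the kidney collecting duct, gave log2 signals of 9.22 in control and 8.75 in RVO (probe set 19725430). The difference of -0.46, or 0.726-fold, was the lowest of the 8 genes, ranked 796 from the lowest of all genes, and was 2.44 times the SD between probe sets. Of 6 surface epithelium genes with a probe set only 2 passed the filter, the keratin gene KRT5 at 0.10 and the adhesion gene EPCAM at 0.60, both above AQP3.

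AQP7, the glycerol channel of fat cells, had log2 signals of 5.15 and 5.27 (probe set 19725437), just above the low-signal limit of 5 in both arrays. The difference of 0.12, or 1.09-fold, was close to the median of 0.12 over 7 adipocyte genes. Past 2-fold upwards among them was 1 gene, against 3.5% of all genes, that of the fatty acid-binding protein FABP4, at 1.51. With a control signal of 4.71, FABP4 passed the filter through the RVO array alone. In RefSeq's gene order on assembly mOryCun1.1, AQP7 and AQP3 are next to each other with 0 protein-coding genes between them, and their differences were 0.12 and -0.46.

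AQP9, a glycerol and urea channel of liver cells and leukocytes, gave log2 signals of 4.48 in control and 5.26 in RVO (probe set 19796775). The difference of 0.78, or 1.72-fold, was the highest of the 8 genes, ranked 651 from the highest of all genes, and 6.28% of genes differed by at least as much. The control signal lay under 5, so this difference rests on a low signal, and AQP9 passed the filter through the RVO array alone. Genes of phagocytes were higher in the same array. Of 13 measured genes of microglia and macrophages 11 exceeded 2-fold upwards and 0 downwards, against 3.5% and 0.479% of all genes. The median of the 13 was 1.92. Among the 11 was CD14, the coreceptor of lipopolysaccharide, at 2.84. All 13 exceeded AQP9, but CX3CR1 did so narrowly, at 0.81. CX3CR1 and PTPRC, the latter 1 of the 11, passed the filter through the RVO array alone, at control signals of 4.73 and 4.60. The summed linear signal of the 13 genes of microglia and macrophages was 1104 in control and 4491 in RVO. Of 8 neutrophil genes 2 exceeded 2-fold upwards, against 3.5% of all genes, and the list median was -0.02. The 2 were S100A8 at 2.09 and the chemokine receptor gene CXCR1 at 1.12. S100A8, at a control signal of 3.35, passed the filter through the RVO array alone. The part of either cell type in the AQP9 signal was not tested.

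**Figure D2:**
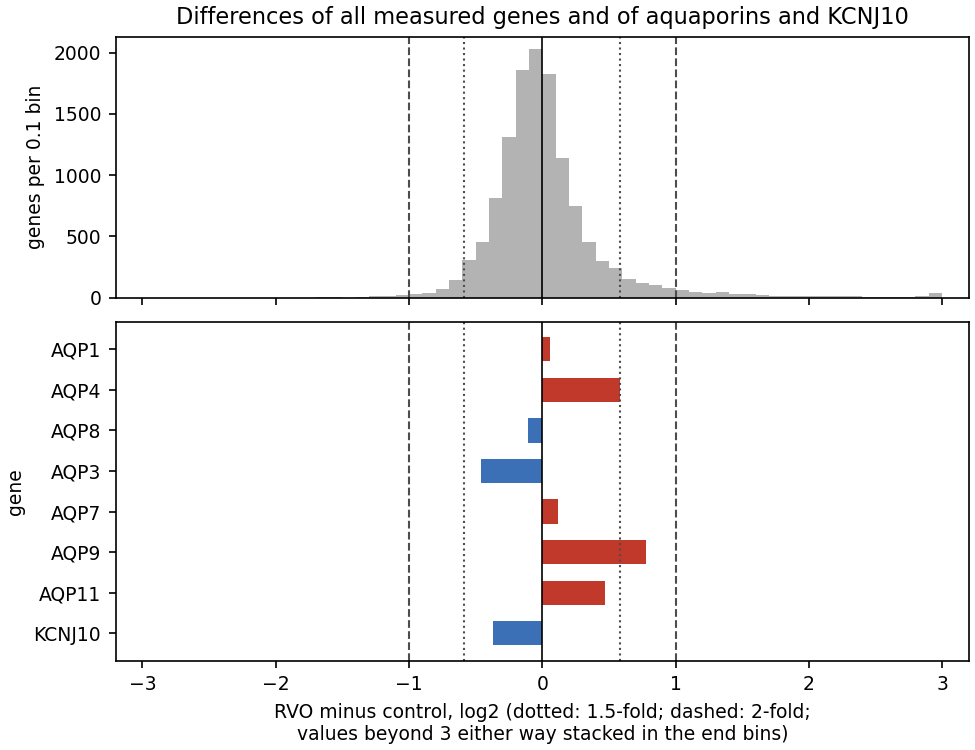
Difference between the RVO and the control array (log2) on the x axis, as a histogram of all 12724 genes above and as bars for the 8 genes below, with lines at 1.5-fold (dotted) and 2-fold (dashed). All bars lie within 2-fold, AQP9 reaches furthest up at 0.78 and AQP3 furthest down at -0.46.

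The other aquaporins were few. AQP6, an aquaporin of intracellular vesicles in the rat kidney, had log2 signals of 6.79 and 6.75, and AQP10, a glycerol channel of the human intestine, had 5.55 and 5.27, differences of -0.04 and -0.28. MIP, the aquaporin of lens fibres, had 4.94 in both arrays, under the filter, with identical deposited values, as had 772 of 26193 probe sets. Among lens genes, CRYGS at 4.47 was the only one of 8 beyond 2-fold, where 3.5% of all genes were upwards.

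Of 11 other inward rectifiers none was past 2-fold, 8 lay below 0, as did 56.0% of all genes, and the median was -0.32, against -0.04 over all genes. KCNJ10 lay close to that median, with 4 of the 11 below it. The lowest were KCNJ14, which encodes Kir2.4, at -0.88, and KCNJ3 and KCNJ6, subunits of the G protein-gated channels, at -0.71 and -0.67. KCNJ2, which encodes Kir2.1, another rectifier reported in Müller glia of rodents, had log2 signals of 7.95 and 7.55. KCNJ13, which encodes Kir7.1 of the pigment epithelium, had 7.11 and 6.76. KCNJ8, the Kir6.1 subunit known from pericytes of the mouse brain, had 5.11 and 5.60 and was the highest at 0.49. KCNJ16 encodes Kir5.1, which forms joint channels with Kir4.1, with log2 signals of 2.50 in control and 4.57 in RVO. Both signals were under 5, so KCNJ16 did not pass the filter, and its difference of 2.07 rests on signals too low to read.

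The complex that anchors AQP4 and Kir4.1 in the membrane was close to its control level as a list. Of 13 measured genes none was beyond 2-fold, 11 lay above 0, as did 42.8% of all genes, and the median was 0.08. DMD, which encodes dystrophin, gave log2 signals of 10.91 in control and 10.36 in RVO on the brightest of its 5 probe sets. This difference of -0.55, or 0.683-fold, was the lowest of the list and had the sign of KCNJ10. All 5 probe sets of DMD were lower in RVO, with differences from -0.60 to -0.43, and which transcript each reads is not known here. DAG1, the dystroglycan that links the complex to the basement membrane, differed by 0.35 and DTNA, a dystrobrevin of glia, by 0.30. HEPACAM and MLC1, a pair of glial membrane proteins of the endfeet, differed by 0.41 and 0.07. SGCE, a sarcoglycan, differed by 0.43, and SSPN, sarcospan, by 0.78. At a control signal of 4.54, SSPN passed the filter through the RVO array alone. SNTB1, a syntrophin, differed by 0.06.

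**Figure D3:**
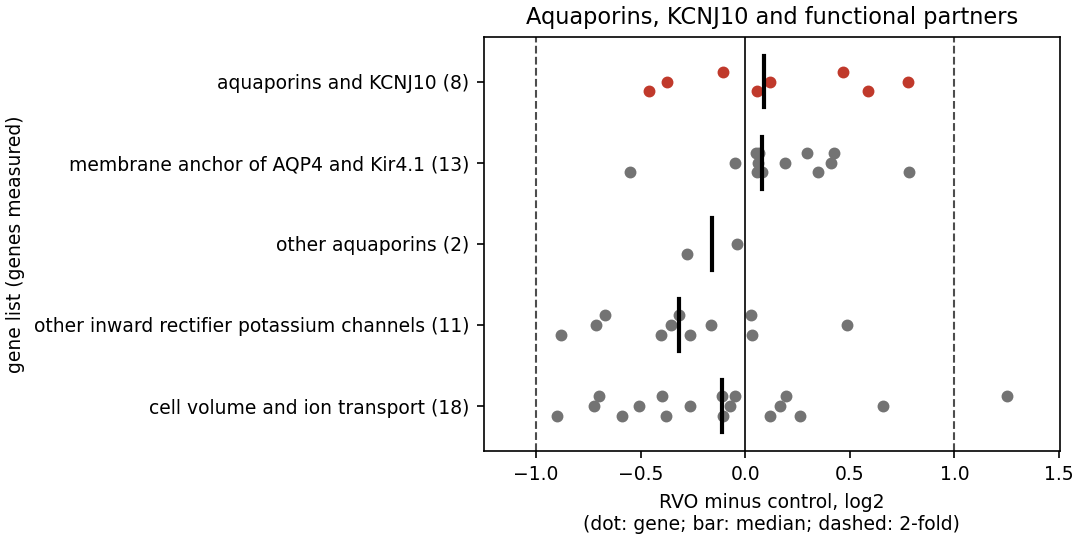
Difference between the RVO and the control array (log2) on the x axis for each measured gene of 5 groups (dots), with the group's median (bar) and 2-fold (dashed lines). The 8 genes spread from -0.46 to 0.78, and SLC12A4 at 1.25 is the only gene of the other groups beyond 2-fold.

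Among 18 measured genes of cell volume control and ion transport, 1 exceeded 2-fold upwards and 0 downwards. Over all 12724 genes these shares were 3.5% and 0.479%, so 1 gene does not set this list apart. Below 0 lay 12 of the 18, as did 56.0% of all genes, and the list median was -0.11. The gene past 2-fold, the only one in the functional lists, was SLC12A4, with log2 signals of 6.05 and 7.30, a 2.38-fold difference. It encodes a potassium-chloride cotransporter that swollen cells use to lose salt. P2RY1, a purine receptor in the volume control of Müller glia in rodents, differed by 0.66. SLC12A2, the cotransporter that brings sodium, potassium and chloride into cells, differed by 0.16, and the measured subunits of the volume-regulated anion channel, LRRC8B, LRRC8C and LRRC8D, by 0.20, 0.26 and 0.12. The lowest differences were those of SLC16A1, a lactate transporter, at -0.90, and ATP1B1, a subunit of the sodium pump, at -0.72. The carbonic anhydrase genes CA14 and CA2 differed by -0.70 and -0.38, KCNK2, a leak potassium channel, by -0.59, SLC12A5, the chloride extruder of neurons, by -0.51 and the chloride channel gene CLCN2 by -0.40, all on the side of KCNJ10.

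Cell type genes outside glia gave the range against which these differences stood. All 11 measured rod and cone genes lay below 0, as did 56.0% of all genes, and their median was -0.50. KCNJ10 at -0.37 was less far below 0 than 9 of the 11. Of 12 retinal ganglion cell genes 5 were past 2-fold downwards, against 0.479% of all genes, and the list median was -0.81. The 12 pigment epithelium genes had a median of -0.37, equal to the difference of KCNJ10 at this precision. These 12 include KCNJ13, at -0.35, which was also counted among the other inward rectifiers. Of 11 fibroblast genes 9 exceeded 2-fold upwards, against 3.5% of all genes, in the same array in which AQP4, AQP9 and AQP11 were higher. The median of the 11 was 1.45. Of the 9, FAP and ASPN, at control signals of 3.36 and 3.78, passed the filter through the RVO array alone. How far the makeup of the 2 samples enters the differences of the 8 genes was not tested.

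**Figure D4:**
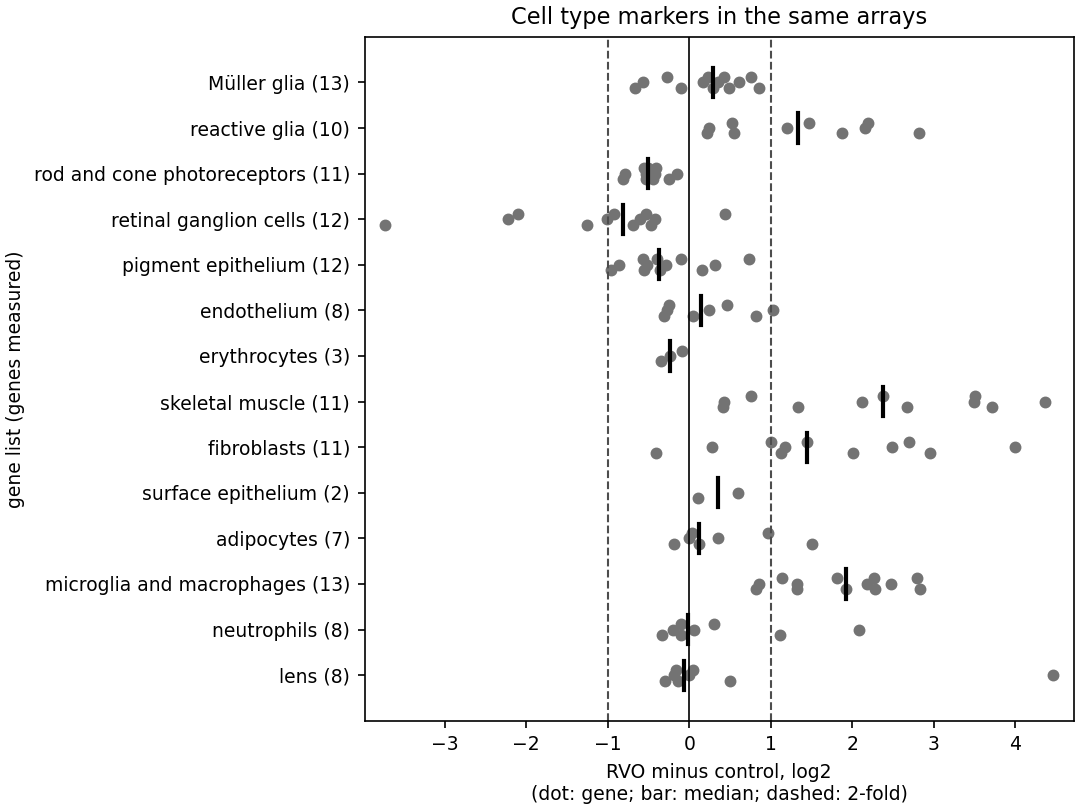
Difference between the RVO and the control array (log2) on the x axis for each measured gene of 14 cell type lists (dots), with the list's median (bar) and 2-fold (dashed lines). By their medians, skeletal muscle, microglia and macrophage, fibroblast and reactive glia genes lie furthest up and retinal ganglion cell genes furthest down, the highest single gene is the lens gene CRYGS at 4.47, and Müller glia genes between -0.67 and 0.86.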

How the data were processed

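The deposited values are log2 signals per probe set, which the authors made by RMA in R from Rabbit Gene 1.0 ST arrays, normalizing both arrays together (1 control, 1 RVO). RMA brings the arrays to a common distribution of probe signals, so a shift shared by most genes would not be seen, while the probe set values still differ slightly in median and quartiles. Symbols came from the platform annotation, in which 15816 of 26193 probe sets have 1 symbol, 376 several and 10001 none. Where a gene had several probe sets, that with the highest mean signal was used. Genes whose higher signal was under 5 were left out and 2-fold was the limit, both after the study's methods. In each of the retinal ganglion cell, erythrocyte, neutrophil and lens lists, 1 gene passed the filter through the control array alone. Differences, ranks and medians were computed in Python 3.11.15 with pandas 2.3.3. The count beyond 2-fold, centring, quantile normalization and trend removal were tested on simulated data without added noise. Ranks and medians were not tested in this way. The number of arrays, 2, limits the precision, and no test was run. The gene lists and the 8 genes were chosen with earlier results of these data known. Of the lists, 2 genes were found under another symbol, through gene identifiers in the RefSeq table.

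All 8 genes were named. Of functional lists, genes beyond 2-fold and the 3 with the largest differences were named, and of cell type lists the 2 with the highest mean signal and the 1 with the largest difference were eligible. GFAP, RLBP1, GLUL, CASQ1, TNNC2, CX3CR1, PTPRC, FAP, ASPN, ALAS2, KCNJ2, KCNJ8, KCNJ13, KCNJ16, DAG1, DTNA, HEPACAM, MLC1, MIP, SNTB1, P2RY1, SLC12A2, SLC12A5, KCNK2, CLCN2, the LRRC8 genes, CA2 and CA14 were named for their roles or low signals after their values were seen. A planned search for genes with signals nearest to AQP4 and KCNJ10 was not used, since signals of different probe sets are not comparable. No sequence is shown, and AQP2 and AQP5 were not analysed here apart from their shared probe set. Alternatives were other scalings, filters, probe set choices and limits.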

Additional observations from a re-analysis of the deposited data

Results flagged for a closer look

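The probe set annotated to both AQP2 and AQP5 (19842346) entered no comparison because it cannot be assigned to either gene. Its log2 signals were 7.38 in control and 8.38 in RVO, a difference of 0.999 (1.999-fold), above the control level and just under 2-fold. Its difference was larger than that of each of the 8 genes, and 3.98% of all genes differed by at least as much. AQP2 and AQP5 are next to each other in the RefSeq gene table of mOryCun1.1, with 0 protein-coding genes between them, and AQP6, on the other side of AQP5, differed by -0.04. Which of the 2 genes the signal comes from was not tested.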

How the results depend on the processing

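No paired analysis was possible because each condition has 1 array and the labels give no replicate numbers. The difference of each of the 8 genes kept its sign under every alternative that gave a value, and all 61 such values moved by less than the SD of 0.19 between probe sets. AQP4 ranged from 0.57 to 0.61, KCNJ10 from -0.37 to -0.32, AQP9 from 0.78 to 0.88, AQP3 from -0.46 to -0.45 and AQP11 from 0.45 to 0.49. With 1 probe set each, neither the filters nor the choice of probe set could alter these differences. Only the scalings could: centring on the median, repeated quantile normalization and removal of a trend of the differences with signal. The other values among the 61 were fixed in advance and show nothing about stability. The count beyond 2-fold stayed at 0 each way and was 2 higher at a limit of 1.5-fold. At that limit 1 gene, AQP9, remained higher when quantile normalization was repeated, and 1, AQP4, when the filter was set at a higher signal of 6 or a mean signal of 5, which left AQP9 out. A filter at 6 also left out AQP7, and the median of the genes was then -0.03. That filter moved the median of other inward rectifiers to -0.54, of adipocyte genes to 0.66, of neutrophil genes to 1.12, of lens genes to 0.18 and of surface epithelium genes to 0.60, the last being 0.14 with no filter, since fewer or more genes were counted. The other 138 of 144 list medians moved by less than the SD. Many of them were fixed in advance as well. Every list gene but DMD had 1 probe set, and a filter that kept the same genes of a list left its median unchanged. This count therefore shows little about stability. The low signals of AQP7 and AQP9 limit what their differences show.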
